A study of Homo sapiens with 12 samples.

Results

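The genes described here belong to insulin and IGF receptor signalling and its FOXO transcription factors: the receptors INSR and IGF1R, the docking proteins IRS1 and IRS2, the kinase SGK1, the PI3K brake PIK3IP1, the factors FOXO1, FOXO3 and FOXO4, and the FOXO target CCNG2. These 10 genes were given by symbol and found by their Ensembl identifiers among the 48162 genes of the deposited count table. All 10 were in the table, and all 10 passed the filter on low counts that left 15630 genes for testing. RNA was sequenced from T84, a cell line derived from a human colon carcinoma that forms a tight, salt-transporting epithelial layer in culture. Confluent cultures had their medium taken off and Hanks buffered saline put on, either at pH 7.4 (the control) or at pH 6.0, and were harvested after 3 h or after 6 h. That gives 4 groups of 3 libraries: pH 7.4 at 3 h, pH 6.0 at 3 h, pH 7.4 at 6 h and pH 6.0 at 6 h. All 4 groups share the saline, and none of the 12 libraries is from cells left in medium, so the comparisons are of time and of pH within saline and not of saline with medium. The cells are a single tumour line, and the labels give no genotype, passage or culture of origin.

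When insulin or IGF binds its receptor, the receptor phosphorylates IRS1 and IRS2, which recruit PI3K, and the lipid that PI3K makes activates AKT and, through mTOR complex 2, SGK1. These kinases phosphorylate FOXO proteins, which are then held in the cytoplasm. When growth factors are taken away, FOXO proteins enter the nucleus and switch on genes of cell cycle arrest, catabolism and also of the pathway itself, INSR and IRS2 among them. Saline holds no serum growth factors and no amino acids, and both are known inputs to this pathway. FOXO activity is set mainly by phosphorylation and location, which mRNA levels do not measure.

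Libraries held 13912532 to 24331032 counts, and mitochondrial genes took 7.14 to 10.6% of them, with the 3 libraries of pH 6.0 at 6 h the lowest (7.14 to 7.40%, against 7.97 to 8.97% at pH 7.4 and 6 h). The labels do not say that the libraries of a group are separate cultures, so p-values here measure library-to-library spread, which may be technical. All 11 markers of intestinal epithelium were detected, with a summed level of 9059 to 12400 CPM (counts scaled to library size). That sum was lowest at pH 7.4 and 6 h (9059 to 9380) and highest at pH 6.0 and 6 h (11440 to 12400), so it moved with the 6 h comparison of pH, and the part of either measure in the results was not tested. Markers of fibroblasts summed to 1.05 to 2.73 CPM in 11 of the libraries and to 24.2 CPM in replicate 2 of pH 7.4 at 6 h, most of it from collagen genes. Leukocyte markers reached at most 1.77 CPM and endothelial markers 1.28 CPM. Without the library with the collagen reads, 7 members were called for pH at 6 h, 6 for time at pH 7.4 and 7 for the interaction, the same counts as with it. Over all genes, that fit called 3183 higher and 3589 lower for pH at 6 h (3418 and 3924 with the library). It called 2472 and 1912 for time at pH 7.4 (2695 and 2247) and 2056 and 2347 for the interaction (2048 and 2541). In what follows, a level is in CPM scaled with TMM factors unless it is given as RPKM (scaled to depth and to gene length), a difference is a log2 fold change ± its standard error (SE), and a gene is called changed at a Benjamini-Hochberg adjusted p under 0.05 over all 15630 genes in edgeR's quasi-likelihood test. In such bulk samples fewer cells and less RNA per cell cannot be told apart.

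**Figure D1:**
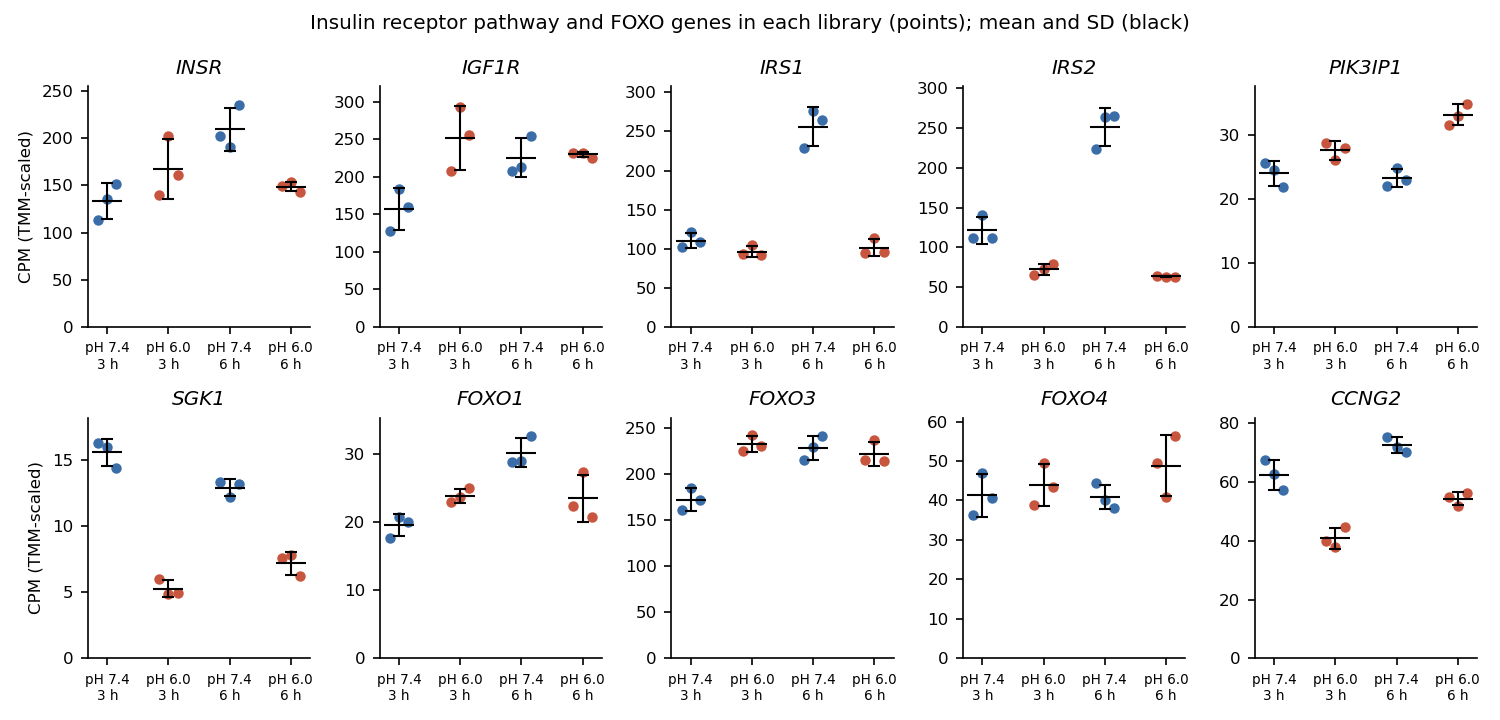
Each panel plots 1 gene, with the level in CPM on the vertical axis from 0 and the 4 groups along the horizontal axis. Points are single libraries (blue pH 7.4, red pH 6.0), and black bars are the mean and SD of 3 libraries. IRS1 and IRS2 stand high in the 3 libraries of pH 7.4 at 6 h, and SGK1 is below 8 CPM in all libraries of pH 6.0.

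From 3 h to 6 h in saline of pH 7.4, 6 of the 10 genes rose (IRS1, IRS2, INSR, IGF1R, FOXO1 and FOXO3) and none fell. Of all tested genes, 17.2% rose and 14.4% fell in that comparison. Over the same hours at pH 6.0 CCNG2 and SGK1 rose and none fell, where 8.64% of all genes rose and 10.9% fell. Saline of pH 6.0 against pH 7.4 raised IGF1R and FOXO3 and lowered IRS2, SGK1 and CCNG2 at 3 h, with 9.53% of all genes called higher and 9.26% lower. At 6 h, PIK3IP1 was higher at pH 6.0 and IRS1, IRS2, INSR, FOXO1, SGK1 and CCNG2 were lower, with 21.9% of all genes called higher and 25.1% lower. The difference between the pH effect at 6 h and that at 3 h, the interaction, was called negative for 6 members and positive for SGK1, against 16.3% and 13.1% of all genes. The median of the 10 differences was 0.46 for time at pH 7.4, 0.03 for time at pH 6.0, 0.14 for pH at 3 h and -0.39 for pH at 6 h (log2). The medians over all tested genes lay between -0.019 and -0.001 in these comparisons. The comparisons share libraries: both time effects and both pH effects use the same 4 groups.

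Gene length moved with the differences over the whole table and has to be read beside each of them. The lengths recovered from the deposited RPKM put INSR, IGF1R, IRS2 and FOXO3 in the longest decile of tested genes (at least 6463 bases) and IRS1, FOXO1, SGK1 and CCNG2 in the ninth decile. FOXO4 and PIK3IP1 were in the sixth. In the longest decile the median difference of all genes was 0.35 for time at pH 7.4, -0.32 for pH at 6 h, 0.17 for pH at 3 h, -0.13 for time at pH 6.0 and -0.49 for the interaction. In the ninth decile the medians were 0.16, -0.16, 0.08, -0.07 and -0.24 in the same order. A second fit removed a smooth trend with length from each library, and its values are given below as length-corrected. Length-corrected, 4 members rose and 1 fell with time at pH 7.4, and 3 rose and none fell at pH 6.0. Of the 15630 tested genes, 2146 rose and 1905 fell at pH 7.4 in that fit, and 2174 rose and 1453 fell at pH 6.0. For pH, 2 members were then higher and 4 lower at 3 h, and 3 higher and 4 lower at 6 h. Over all genes, 1359 were higher and 1741 lower at 3 h, and 3786 higher and 3440 lower at 6 h. The interaction was then positive for 2 members and negative for 3, against 2013 and 1533 of all genes. What makes the trend, and its part in the members' changes, was not tested.

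**Figure D2:**
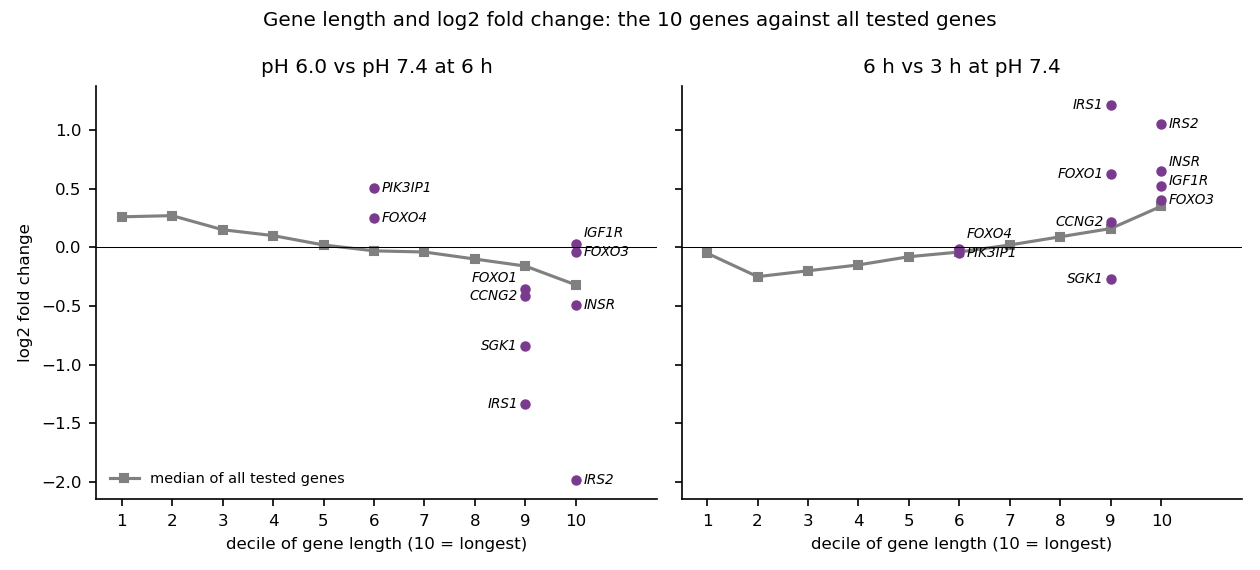
The horizontal axis is the decile of gene length (10 holds the longest tested genes) and the vertical axis is the log2 fold change, for pH 6.0 against pH 7.4 at 6 h (left) and 6 h against 3 h at pH 7.4 (right). Grey squares are the median of all tested genes in a decile, and purple points are the 10 genes. IRS1 and IRS2 lie far from the medians of their deciles in both panels, while IGF1R and FOXO3 lie near 0 on the left and near the decile's median on the right.

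INSR encodes the insulin receptor, a tyrosine kinase. Its level at pH 7.4 was 114, 136 and 151 CPM in the libraries of 3 h and 203, 191 and 235 CPM in those of 6 h. At pH 6.0 it was 139.5, 202 and 161 CPM at 3 h and 149.7, 154 and 143 CPM at 6 h. The 6 h libraries of pH 7.4 thus lay above all others except 1 library of pH 6.0 at 3 h, which fell between them. The rise with time at pH 7.4 was 1.57-fold (log2 0.65 ± 0.12, adjusted p 0.000627), and 0.31 ± 0.08 length-corrected (adjusted p 0.00817). At 6 h INSR was 1.41-fold lower at pH 6.0 (log2 -0.49 ± 0.12, adjusted p 0.00275), a call that ended with length correction (-0.20 ± 0.08, adjusted p 0.0585). For pH at 3 h the groups overlapped and the difference of 0.33 ± 0.12 was not called (adjusted p 0.068), and length-corrected it was 0.14 ± 0.08 (adjusted p 0.245). The uncorrected value passed the threshold in DESeq2 (adjusted p 0.0465), without replicate 1 of pH 6.0 (0.44, adjusted p 0.00829) and without replicate 3 of pH 7.4 (0.42, adjusted p 0.0335). With time at pH 6.0 the difference was -0.17 (95% interval -0.43 to 0.09).

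IGF1R encodes the receptor for IGF1, the closest relative of INSR. It held 127, 184 and 159.8 CPM at 3 h and 207, 213 and 255 CPM at 6 h in pH 7.4 saline. In pH 6.0 saline the values were 208, 293 and 255 CPM at 3 h and 232, 232 and 226 CPM at 6 h. The libraries of pH 7.4 at 3 h were the low ones, and the other 3 groups overlapped. IGF1R was 1.61-fold higher at pH 6.0 at 3 h (log2 0.68 ± 0.13, adjusted p 0.00171; length-corrected 0.41 ± 0.07). At 6 h the difference between pH values was 0.03, with an interval of -0.24 to 0.30, and after length correction it was 0.37 ± 0.07 and called (adjusted p 0.000124). Its rise with time at pH 7.4, 1.43-fold (0.52 ± 0.13, adjusted p 0.00596), was not called after length correction (0.08 ± 0.07, adjusted p 0.456). IGF1R is the longest of the 10 genes, at 11803 bases. Per length the 2 receptors were close: the ratio of IGF1R to INSR in RPKM was 0.776 to 1.03 in the 6 libraries of pH 7.4 and 1.1 to 1.2 in the 6 of pH 6.0. The ratio was thus higher in every library of pH 6.0 than in any of pH 7.4.

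IRS1 is the first of the docking proteins that link both receptors to PI3K. In saline of pH 7.4 its level was 102, 121 and 108 CPM at 3 h and 228, 276 and 264 CPM at 6 h. In saline of pH 6.0 it was 93.0, 104 and 91.9 CPM at 3 h and 94.6, 114 and 95.8 CPM at 6 h. So 3 libraries stood apart, those of pH 7.4 at 6 h, with the lowest of them at 228 CPM and the highest of the other 9 at 121 CPM. The rise with time at pH 7.4 was 2.32-fold (log2 1.22 ± 0.09, adjusted p 6e-09). At pH 6.0 the difference with time was 0.07, with an interval of -0.12 to 0.27. At 6 h IRS1 was 2.53-fold lower at pH 6.0 than at pH 7.4 (log2 -1.34 ± 0.09, adjusted p 1.32e-10), while at 3 h the difference was -0.20 ± 0.09 and not called (adjusted p 0.144). With length correction the 3 h difference was -0.27 ± 0.08 and called (adjusted p 0.0208), the 6 h difference -1.13 ± 0.08 and the rise at pH 7.4 1.03 ± 0.08.

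IRS2 is the other docking protein and a FOXO target in liver and other tissues. It gave 112, 141 and 111 CPM at pH 7.4 and 3 h and 224, 264 and 266 CPM at pH 7.4 and 6 h. Its levels at pH 6.0 were 65.6, 73.0 and 79.3 CPM at 3 h and 64.3, 62.8 and 63.1 CPM at 6 h. Unlike those of IRS1, its pH 6.0 libraries were already below all pH 7.4 libraries at 3 h. The fall against pH 7.4 was 1.67-fold at 3 h (log2 -0.74 ± 0.10, adjusted p 1.41e-05) and 3.96-fold at 6 h (log2 -1.99 ± 0.10, adjusted p 4.23e-13). The 6 h value is the largest difference among the 10 genes in any of the 4 pairwise comparisons. At pH 7.4 IRS2 rose 2.07-fold with time (log2 1.05 ± 0.10, adjusted p 5.96e-08), and at pH 6.0 its difference was -0.20 ± 0.10 (adjusted p 0.175, interval -0.40 to 0.01). Length-corrected values were -0.85 ± 0.08 and -1.74 ± 0.08 for pH at 3 h and 6 h and 0.81 ± 0.08 for time at pH 7.4, all called. An antisense gene overlaps IRS2 by 115 exonic bases in GENCODE 29 and was not analysed here; with the strand setting unknown, its reads cannot be told apart from those of IRS2. All calls for IRS1 and IRS2 for pH at 6 h and for time at pH 7.4 held in each of 15 alternative fits.

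The proportion of the docking proteins changed with the groups. The ratio of IRS1 to IRS2 in RPKM was 1.01 to 1.14 in libraries of pH 7.4 at 3 h and 1.16 to 1.22 at 6 h. It was 1.36 to 1.67 at pH 6.0 and 3 h and 1.72 to 2.11 at pH 6.0 and 6 h. No 2 of these ranges overlapped, and the highest came from IRS2 at its lowest level, 8.67 ± 0.0904 RPKM (SD, n = 3), with IRS1 at 16.2 ± 1.79 RPKM.

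Since IRS1 and IRS2 rose together at pH 7.4 and did not do so at pH 6.0, the 250 bases upstream of their RefSeq start sites are shown (GRCh38.p14, 5′ to 3′ on the gene's strand). The IRS1 stretch is chr2:226799821-226800070 and that of IRS2 chr13:109786584-109786833, both on the minus strand. The capitals in IRS2 mark a match to TGTTTTG, the reverse complement of the forkhead motif CAAAACA.
IRS1: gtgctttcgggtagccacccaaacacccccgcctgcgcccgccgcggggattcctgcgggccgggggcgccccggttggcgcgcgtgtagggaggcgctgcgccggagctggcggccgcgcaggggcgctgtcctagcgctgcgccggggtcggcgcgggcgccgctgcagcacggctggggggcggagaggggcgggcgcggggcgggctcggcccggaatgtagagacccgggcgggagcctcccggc
IRS2: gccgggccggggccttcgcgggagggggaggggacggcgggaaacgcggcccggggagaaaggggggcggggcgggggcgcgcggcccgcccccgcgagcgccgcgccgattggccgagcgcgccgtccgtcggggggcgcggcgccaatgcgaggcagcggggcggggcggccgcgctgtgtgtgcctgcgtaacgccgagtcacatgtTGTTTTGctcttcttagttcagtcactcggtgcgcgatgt
Both stretches are rich in G and C, 80.8% of bases in IRS1 and 76.4% in IRS2, and the IRS1 stretch holds neither motif searched.

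Forkhead proteins bind GTAAACA and, more weakly, CAAAACA, the core of insulin response sequences. Both strands of all RefSeq windows of the 10 genes, from 250 bases before to 50 after each start, were searched for these 7 letters: 16 windows, with several starts for some genes. GTAAACA or its reverse complement TGTTTAC stands in 3.42% of all 35116 windows, and CAAAACA or TGTTTTG in 4.92%. Counted by gene, these shares were 4.19% and 6.05% of 27305 genes. The matches, in capitals within 29 bases, were in IRS2 (chr13:109786606-109786634, minus strand, 40 bases before the start), in the second SGK1 window (chr6:134178051-134178079, minus, 207 before), in FOXO4 (chrX:71095863-71095891, plus, 23 after) and in the first PIK3IP1 window (chr22:31292455-31292483, minus, 16 after).
IRS2: gagtcacatgtTGTTTTGctcttcttagt
SGK1: tcctgtgcatgTGTTTTGaattttttccg
FOXO4: cccggcgagtgGTAAACAgagacgtcagg
PIK3IP1: taaagagaggcTGTTTACcagaacagcat
So IRS2 and SGK1, which were lower at pH 6.0 at both times, hold CAAAACA on the strand opposite the gene. PIK3IP1, higher at pH 6.0 at 6 h, holds GTAAACA on the opposite strand too, and FOXO4, not called, holds it on the gene's strand. CCNG2, also lower at both times, had no match. Whether the matches go with the direction of change was not tested. A match is a description of the letters and not of binding, which was not measured.

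PIK3IP1 encodes a membrane protein that binds the catalytic subunit of PI3K and restrains it. It was at 25.6, 24.4 and 21.8 CPM at 3 h and 22.0, 24.8 and 22.9 CPM at 6 h in pH 7.4. In pH 6.0 the levels were 28.75, 26.0 and 27.9 CPM at 3 h and 31.5, 32.9 and 34.8 CPM at 6 h. Every library of pH 6.0 was above every library of pH 7.4, though the 3 h difference of 0.20 ± 0.10 was not called (adjusted p 0.155). At 6 h it was 1.42-fold higher at pH 6.0 (log2 0.51 ± 0.10, adjusted p 0.000178; length-corrected 0.52 ± 0.09), the only one of the 10 genes called higher there in the fit with TMM factors. Its difference with time at pH 6.0, 0.26 ± 0.10, had an adjusted p of 0.0582. It was called without replicate 1 of pH 6.0 at 3 h (0.33, adjusted p 0.0388) and with length correction (0.30, adjusted p 0.0199). DESeq2, median-of-ratios factors and a filter of 5 CPM in 3 libraries also called it (adjusted p 0.0437, 0.047 and 0.0498). In 10 of 15 alternative fits it was not called. An antisense transcript overlaps PIK3IP1 by 36 exonic bases and had 1 to 10 counts against 370 to 651 for the gene, and the use of strand in counting is not given in the sources used here.

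SGK1 encodes a kinase of the AKT family that phosphorylates FOXO3 and raises epithelial sodium uptake, and its mRNA is short-lived. It was the lowest of the 10 genes, at 69 to 415 counts in a library. Levels at pH 7.4 were 16.3, 16 and 14.4 CPM at 3 h and 13.4, 12.2 and 13.2 CPM at 6 h. Those at pH 6.0 were 6.00, 4.84 and 4.95 CPM at 3 h and 7.61, 7.79 and 6.21 CPM at 6 h. All 6 libraries of pH 6.0 lay below all 6 of pH 7.4. SGK1 was 2.95-fold lower at pH 6.0 at 3 h (log2 -1.56 ± 0.14, adjusted p 4.38e-08) and 1.79-fold lower at 6 h (log2 -0.84 ± 0.14, adjusted p 2.57e-05), and both calls held in all 15 alternative fits. The gap was smaller at 6 h, with an interaction of 0.72 ± 0.19 (adjusted p 0.00762; length-corrected 0.96 ± 0.20). With time SGK1 rose at pH 6.0 by 0.45 ± 0.15 (adjusted p 0.0349). That call was lost without replicate 2 or replicate 3 of pH 6.0 at 3 h (0.40 and 0.41, both adjusted p 0.125) and without replicate 1 or replicate 2 of pH 6.0 at 6 h (0.44 and 0.40, adjusted p 0.0899 and 0.117). At pH 7.4 its difference with time was -0.27 ± 0.12 (adjusted p 0.0983), and -0.43 ± 0.13 length-corrected (adjusted p 0.0154).

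FOXO1 is the FOXO factor best known from liver, fat and beta cells. It stood at 17.7, 20.8 and 20.1 CPM at 3 h and 28.9, 29.1 and 32.7 CPM at 6 h in neutral saline. In acid saline it stood at 23.0, 23.7 and 25.0 CPM at 3 h and 22.4, 27.4 and 20.8 CPM at 6 h. The libraries of pH 7.4 at 6 h were the highest and those of pH 7.4 at 3 h among the lowest. It rose 1.55-fold with time at pH 7.4 (log2 0.63 ± 0.11, adjusted p 0.000159; length-corrected 0.46 ± 0.10, adjusted p 0.00163). For pH at 3 h the libraries did not overlap, but the difference of 0.29 ± 0.11 was not called (adjusted p 0.0678). At 6 h FOXO1 was 1.28-fold lower at pH 6.0 (log2 -0.35 ± 0.11, adjusted p 0.0109), and -0.15 ± 0.10 length-corrected (adjusted p 0.23). The 6 h call was also lost without replicate 3 of pH 7.4 (-0.30, adjusted p 0.0588) and without replicate 1 or replicate 3 of pH 6.0 (-0.28 and -0.24, adjusted p 0.0833 and 0.117). A long noncoding gene, LINC00598, shares 269 exonic bases with FOXO1 and had 0 to 4 counts against 305 to 542.

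FOXO3 was the most abundant FOXO mRNA and, per length, the highest of the 10 genes in the mean over all libraries, at 29.1 RPKM. Its levels at pH 7.4 were 161, 185 and 172 CPM at 3 h and 216, 229 and 241 CPM at 6 h. Its levels at pH 6.0 were 226, 243 and 231 CPM at 3 h and 216, 238 and 214 CPM at 6 h. Only the group of pH 7.4 at 3 h lay apart, below the other 9 libraries. The difference was 1.35-fold for pH at 3 h (log2 0.43 ± 0.08, adjusted p 0.000537; length-corrected 0.32 ± 0.06). At pH 7.4 FOXO3 rose 1.33-fold with time (0.41 ± 0.08, adjusted p 0.000438), which was not called after length correction (0.14 ± 0.06, adjusted p 0.101). For pH at 6 h the difference was -0.04 (interval -0.20 to 0.12), and after length correction 0.22 ± 0.06 with the opposite sign (adjusted p 0.00688). FOXO3B, a near copy, had 7 to 31 counts against 2923 to 4701 for FOXO3, and reads that fit both could have been split between them.

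FOXO4 was not called in any comparison of the fit with TMM factors. It gave 36.2, 47.1 and 40.7 CPM at 3 h and 44.3, 40.1 and 38.1 CPM at 6 h at neutral pH. With acid the values were 38.9, 49.4 and 43.5 CPM at 3 h and 49.4, 40.8 and 56.2 CPM at 6 h. The 4 groups overlapped, and the widest spread within a group was at pH 6.0 and 6 h, from 40.8 to 56.2 CPM. The difference for pH at 6 h was 0.25, with an interval of 0.01 to 0.50 and an adjusted p of 0.0875. Without replicate 2 of pH 6.0 it was 0.40 and called (adjusted p 0.0101). It was also called with no filter, with a filter of 5 CPM in 3 libraries and in the compared groups alone (adjusted p 0.0464, 0.0462 and 0.034). In 11 of 15 alternative fits it was not called. With time at pH 7.4 the difference was -0.01 (interval -0.26 to 0.23). Of the summed RPKM of the 3 factors, FOXO3 made 58.5 to 66.1%, FOXO4 23.1 to 34.2% and FOXO1 7.28 to 11.4%, so their order was the same in all 12 libraries.

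CCNG2 encodes cyclin G2, an unusual cyclin that goes with cell cycle arrest and is a textbook FOXO target. It had 67.4, 62.9 and 57.2 CPM at 3 h and 75.5, 72.0 and 70.3 CPM at 6 h at pH 7.4. At pH 6.0 it had 39.9, 37.9 and 44.9 CPM at 3 h and 55.0, 51.9 and 56.3 CPM at 6 h. Libraries of pH 6.0 were below those of pH 7.4 throughout, and within each pH those of 6 h were above those of 3 h. CCNG2 was 1.53-fold lower at pH 6.0 at 3 h (log2 -0.61 ± 0.09, adjusted p 4.17e-05) and 1.34-fold lower at 6 h (log2 -0.42 ± 0.09, adjusted p 0.00042; length-corrected -0.23 ± 0.09, adjusted p 0.0327). With time it rose 1.33-fold at pH 6.0 (0.41 ± 0.09, adjusted p 0.00211) and was at 0.21 ± 0.09 at pH 7.4 (adjusted p 0.061). That last value was called without replicate 1 of pH 7.4 at 3 h (0.28, adjusted p 0.0399), and length-corrected it was 0.06 ± 0.09 (adjusted p 0.664). The interaction was not called (0.20 ± 0.12, adjusted p 0.25), but was after length correction (0.44 ± 0.13, adjusted p 0.0126).

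**Figure D3:**
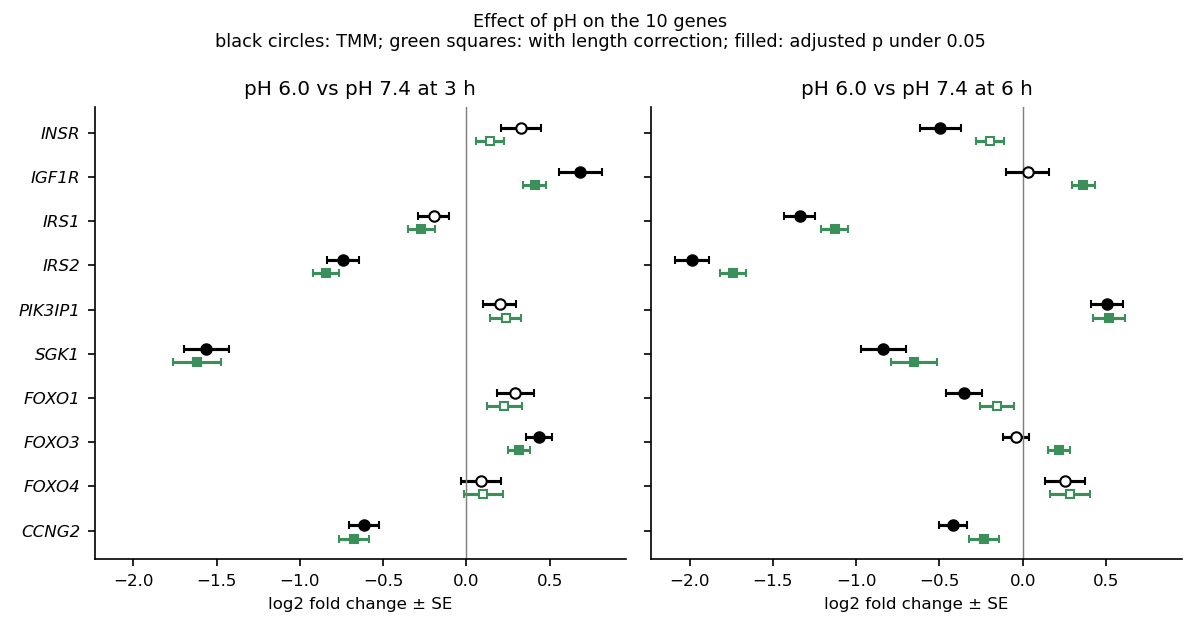
The horizontal axis is the log2 fold change of pH 6.0 against pH 7.4 at 3 h (left) and 6 h (right), and the bars are ± 1 SE. Black circles are the fit with TMM factors, green squares the length-corrected fit, and filled marks are called. IRS2, SGK1 and CCNG2 are called lower at both times in both fits, and INSR and FOXO1 at 6 h are called in the first fit and not in the second.

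**Figure D4:**
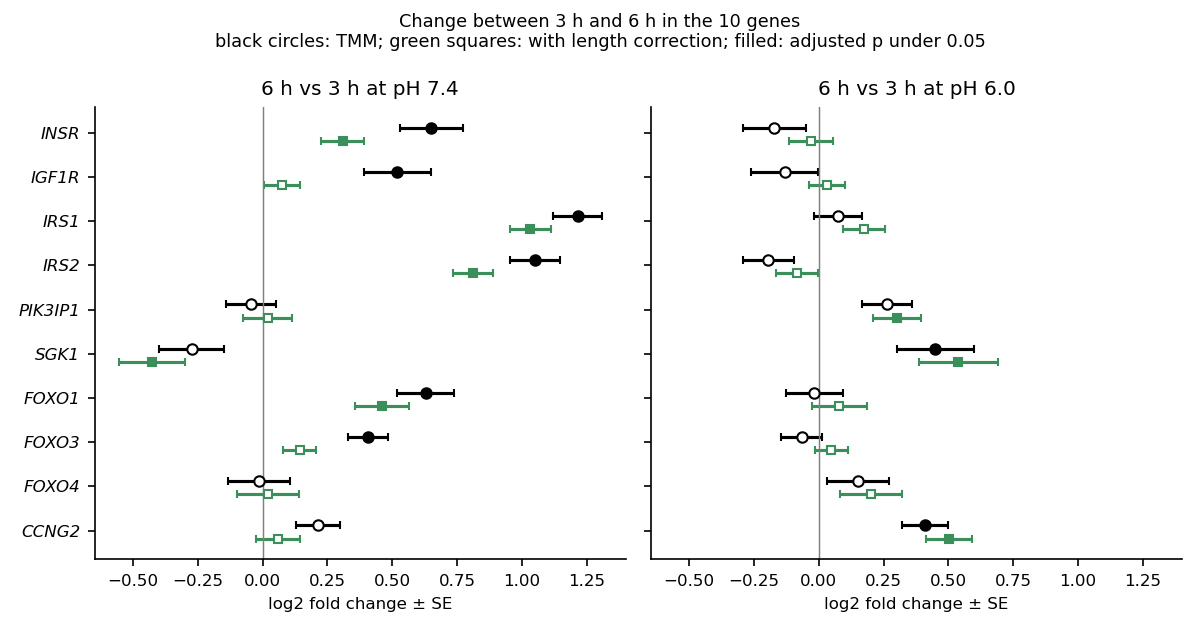
Log2 fold changes of 6 h against 3 h at pH 7.4 (left) and pH 6.0 (right) stand on the horizontal axis, with bars of ± 1 SE. Black circles are the fit with TMM factors, green squares the length-corrected fit, and filled marks are called. At pH 7.4 IRS1 and IRS2 lie near or above 1 in the first fit, while at pH 6.0 neither is called in either fit.

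Per length, the order of the means over the 12 libraries was FOXO3 (29.1 RPKM), IRS1 (23.5), INSR (18.4), IGF1R (18.2), IRS2 (18.2), FOXO4 (13.2), CCNG2 (10.4), PIK3IP1 (8.86), FOXO1 (4.23) and SGK1 (1.88). That mean pools groups that differ, and the order changed between them. FOXO3 led in 3 groups, but at pH 7.4 and 6 h IRS1 led at 42.3 ± 4.13 RPKM, followed by IRS2 at 35.4 ± 3.44, FOXO3 at 30.8 ± 1.84, INSR at 23.1 ± 2.60 and IGF1R at 18.8 ± 2.26. At pH 6.0 and 6 h IRS2 was at 8.67 ± 0.0904, below INSR at 15.9 ± 0.646 and IGF1R at 18.6 ± 0.380 (SD, n = 3 each).

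The interaction sets the pH effect at 6 h against that at 3 h, which is the same number as the time effect at pH 6.0 less that at pH 7.4. It was -1.14 ± 0.13 for IRS1 (adjusted p 3.25e-06) and -1.25 ± 0.14 for IRS2 (adjusted p 1.82e-06). For INSR it was -0.82 ± 0.17, for IGF1R -0.65 ± 0.18, for FOXO1 -0.65 ± 0.16 and for FOXO3 -0.47 ± 0.11. These 6 genes rose with time at pH 7.4, and none of them was called with time at pH 6.0. After length correction the interaction was still called for IRS1 (-0.86 ± 0.11), IRS2 (-0.89 ± 0.11) and INSR (-0.34 ± 0.12, adjusted p 0.041). It was not called for FOXO1 (-0.38 ± 0.15, adjusted p 0.0615), FOXO3 (-0.10 ± 0.09) or IGF1R (-0.04 ± 0.10).

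The rest of the pathway is given by 7 lists with 115 of 116 genes in the table, chosen with earlier results of these data known. Upstream of the receptors, the list of ligands, decoy receptors and binding proteins had 7 tested genes. At pH 6.0 against pH 7.4, 2 were higher and 1 lower at 6 h, and none was called at 3 h (3 h median -0.14, against -0.003 for all genes). Of all tested genes, 21.9% were higher and 25.1% lower at 6 h, and 9.53% higher and 9.26% lower at 3 h. IGF2R, the clearance receptor for IGF2, was lower at pH 6.0 at 6 h (-0.75 ± 0.10, length-corrected -0.45). Its levels there were 462 ± 24.6 against 775 ± 51.2 CPM (SD, n = 3). IGFBP3 and IGFBP4, which bind IGFs outside the cell, were higher (0.79 ± 0.23 and 0.37 ± 0.10). IGFBP3 was at low levels, 3.32 ± 0.29 CPM at pH 6.0 and 1.93 ± 0.0978 CPM at pH 7.4. The IGFBP4 call was lost against a fold change of 1.2 (adjusted p 0.132). With time at pH 7.4 IGF2R rose by 0.51 ± 0.10, but by 0.17 length-corrected (adjusted p 0.0902), and IGFBP3 fell by 0.69 on the log2 scale. The IGFBP3 call was lost with length correction (-0.56, adjusted p 0.0655), against a fold change of 1.2 (adjusted p 0.0894) and without replicate 1 of pH 7.4 at 3 h or replicate 1 or 3 of pH 7.4 at 6 h (adjusted p 0.0621 to 0.0662).

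Of 15 tested adaptors and receptor-level brakes, 8 rose and 1 fell with time at pH 7.4, where 17.2% of all genes rose and 14.4% fell. The median was 0.29, against -0.02 for all genes. At pH 6.0 against pH 7.4, 3 were higher and 6 lower at 6 h, where 21.9% of all genes were higher and 25.1% lower. At 3 h, 2 were higher and 2 lower, against 9.53% and 9.26% of all genes. Length-corrected, the counts of the list were 6 and 2, 2 and 6, and 0 and 2. They are to be read beside the counts over all genes in that fit, given above. SH2B3, an adaptor that damps cytokine receptors, rose with time at pH 7.4 (1.30 ± 0.10; means 30.6 and 75.3 CPM) and was lower at pH 6.0 at 6 h (-1.34 ± 0.10). GRB10, which binds the insulin receptor and restrains it, rose by 0.94 ± 0.09 at pH 7.4 and was lower at pH 6.0 at 6 h (-1.07 ± 0.09). Both thus moved in the direction of IRS1 in these comparisons.

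Among 12 tested genes of PI3K, AKT and SGK kinases, 7 were lower and 1 higher at pH 6.0 at 6 h, with a median of -0.58 (length-corrected 6 and 1, -0.36). Of all genes, 25.1% were lower and 21.9% higher in that comparison. PIK3R1, the main regulatory subunit of PI3K, was at 39.1 ± 2.53 CPM at pH 6.0 and 6 h and at 93.2 ± 8.37 CPM at pH 7.4 and 6 h (-1.25 ± 0.10). It fell with time at pH 6.0 (-1.14 ± 0.10), where IRS1 and IRS2 were not called. GSK3B and PDPK1, a substrate and an activator of AKT, were lower at 6 h by similar amounts (-0.84 ± 0.08 and -0.84 ± 0.09). Length-corrected, they were at -0.57 and -0.59. PIK3CA, a catalytic subunit, rose with time at pH 7.4 (0.81 ± 0.09; length-corrected 0.46). At 3 h 2 genes of the list were lower and 1 higher, where 9.26% of all genes were lower and 9.53% higher. Of the lower ones, GSK3B was at -0.29 ± 0.08. PIK3R3 at -0.35 ± 0.11 lost its call without replicate 3 of pH 7.4 or replicate 2 or 3 of pH 6.0 (adjusted p 0.063 to 0.0877).

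Of 10 tested phosphatases and pseudokinases that restrain AKT, 8 rose and none fell with time at pH 7.4 (median 0.43; length-corrected 5 and 0, 0.20). Of all genes, 17.2% rose and 14.4% fell in that comparison. At 6 h, 6 genes of the list were lower and 2 higher at pH 6.0 (length-corrected 4 and 2), against 25.1% and 21.9% of all genes. PHLPP2, which dephosphorylates AKT, had the smallest p of the list for pH at both times, with -0.94 ± 0.11 at 3 h and -1.76 ± 0.11 at 6 h. At 6 h it held 128 ± 9.46 CPM in neutral and 37.7 ± 2.34 CPM in acid saline. TRIB3, a pseudokinase that binds AKT, was lower at 3 h (-0.43 ± 0.09) and at 6 h (-0.61 ± 0.09) and rose with time at pH 7.4 (0.74 ± 0.09) and at pH 6.0 (0.56 ± 0.09). TRIB1 rose with time at both pH values, by 0.69 ± 0.07 at pH 7.4 and 0.94 ± 0.08 at pH 6.0.

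In the list of mTOR complexes and their regulators, 17 genes were tested. At pH 6.0, 8 were lower and 3 higher at 6 h (length-corrected 5 and 4), where 25.1% of all genes were lower and 21.9% higher. At 3 h, 3 were lower and 1 higher, against 9.26% and 9.53% of all genes. With time at pH 7.4, 6 rose and 1 fell (length-corrected 4 and 1), against 17.2% and 14.4% of all genes. DDIT4, a stress-induced inhibitor of mTOR complex 1, reached 595 ± 37.9 CPM at pH 6.0 and 6 h, against 254 ± 29.1 at pH 6.0 and 3 h and 274 ± 9.60 at pH 7.4 and 6 h. That is a rise of 1.23 ± 0.10 with time at pH 6.0 and a difference of 1.12 ± 0.10 between pH values at 6 h. TSC1, part of the complex that restrains mTOR, was lower at pH 6.0 at both times (-0.63 ± 0.09 and -0.98 ± 0.09). Length-corrected, it was at -0.79 and -0.69. SESN2, an amino acid sensor, was lower at pH 6.0 at 3 h (-0.87 ± 0.10) and at 6 h (-0.53 ± 0.10). It rose with time at pH 7.4 (0.63 ± 0.10) and at pH 6.0 (0.97 ± 0.10). RPTOR, a subunit of mTOR complex 1, rose at pH 7.4 (0.58 ± 0.10) and was lower at pH 6.0 at 6 h (-0.76 ± 0.10). Length-corrected, these values were 0.36 and -0.53.

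For FOXO partners and modifiers, 15 genes were tested. At 6 h, 5 were lower and 4 higher at pH 6.0 (length-corrected 5 and 5), shares near the 25.1% and 21.9% of all genes. At pH 7.4, 6 rose and none fell with time (length-corrected 5 and 1), where 17.2% of all genes rose and 14.4% fell. SIRT1, a deacetylase of FOXO proteins, was lower at pH 6.0 at 3 h (-0.51 ± 0.09) and at 6 h (-0.66 ± 0.09) and rose with time at pH 7.4 (0.55 ± 0.09) and pH 6.0 (0.40 ± 0.09). EP300, an acetyltransferase that FOXO proteins recruit, rose by 0.78 ± 0.12 at pH 7.4 and was lower at pH 6.0 at 6 h (-0.80 ± 0.12). Length-corrected, these values were 0.42 and -0.49. STK4, a stress kinase that phosphorylates FOXO proteins, was lower at 6 h (-0.47 ± 0.08, length-corrected -0.25). XPO1, the exporter that carries FOXO proteins out of the nucleus, was higher at pH 6.0 at 3 h (0.44 ± 0.08).

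FOXO target genes other than the members split in direction. Of 31 listed genes 30 were in the table, TXNIP was not analysed here, and 26 passed the filter. At pH 6.0 against pH 7.4, 4 were higher and 7 lower at 3 h, where 9.53% of all genes were called higher and 9.26% lower. At 6 h, 9 were higher and 12 lower, against 21.9% and 25.1%. With time at pH 7.4, 8 rose and 6 fell, against 17.2% and 14.4%. With time at pH 6.0, 7 rose and 6 fell, against 8.64% and 10.9%. The medians over the list were -0.01, -0.32, 0.04 and 0.07 in this order. Length-corrected, the counts were 7 and 8, 10 and 10, 6 and 4, and 8 and 6. Their medians were -0.032, -0.186, 0.001 and 0.146. PCK1, the gluconeogenic enzyme that FOXO1 drives in liver, had the largest change: 41.7 ± 5.40 CPM at pH 7.4 and 160.4 ± 4.65 CPM at pH 6.0 at 3 h, and 41.2 ± 5.39 against 371 ± 58.2 CPM at 6 h. Its differences were 1.95 ± 0.12 and 3.17 ± 0.12, and with time at pH 7.4 it differed by -0.01 ± 0.12. CITED2, a transcriptional cofactor, was lower at pH 6.0 (-0.98 ± 0.12 at 3 h, -1.67 ± 0.13 at 6 h). ULK1, the kinase that starts autophagy, rose at pH 7.4 (0.70 ± 0.08) and was lower at pH 6.0 at 6 h (-0.96 ± 0.08). CDKN1A, an inhibitor of cyclin-dependent kinases, rose with time at pH 7.4 (0.80 ± 0.10) and at pH 6.0 (0.93 ± 0.10). BBC3, a promoter of cell death, likewise rose at pH 7.4 (0.56 ± 0.11) and at pH 6.0 (1.19 ± 0.11). A further 4 targets were picked out after their values were seen: GADD45A (1.43 ± 0.14) and MXI1 (0.94 ± 0.10) were higher at pH 6.0 at 6 h, and CDKN1B (-0.85 ± 0.09) and SESN3 (-1.09 ± 0.16) lower. The calls of PCK1, CITED2 and ULK1, of CDKN1A for time at pH 7.4, of BBC3 for time at pH 6.0 and of these 4 genes held in all 15 alternative fits.

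**Figure D5:**
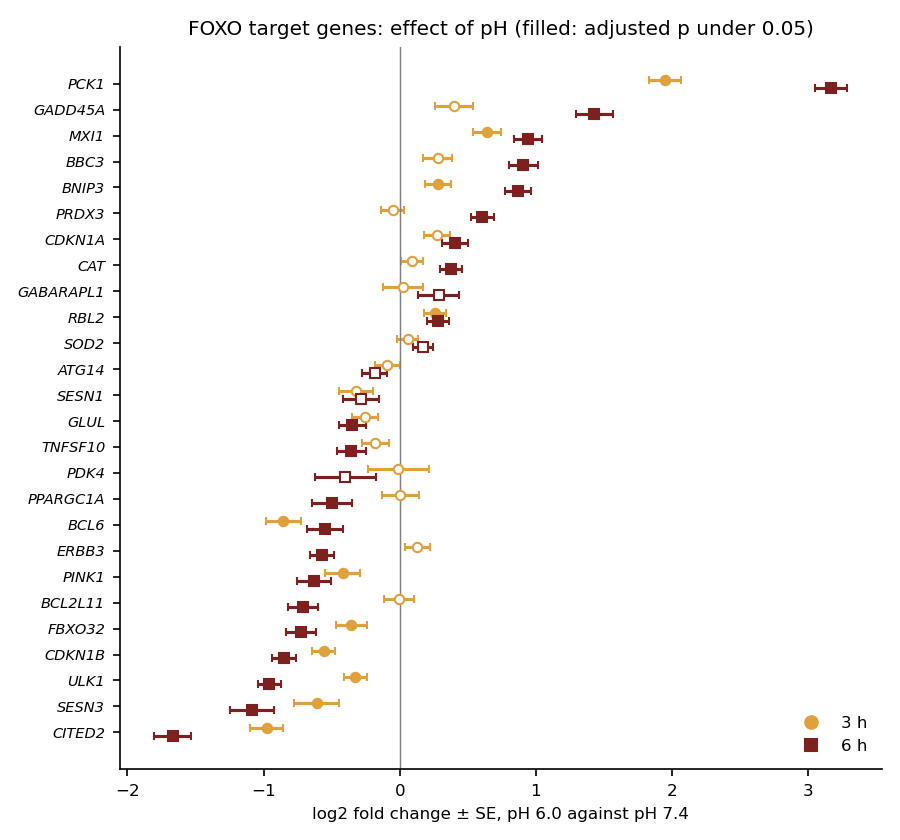
The 26 tested FOXO target genes are on the vertical axis, ordered by the 6 h value, and the log2 fold change of pH 6.0 against pH 7.4 is on the horizontal axis, with bars of ± 1 SE. Yellow circles are 3 h, dark squares 6 h, and filled marks are called. PCK1 stands at the top with 1.95 and 3.17 and CITED2 at the bottom with -0.98 and -1.67.

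The genes most like each member were found by the root mean square difference of log2 CPM over the 12 libraries, each centred on its own mean, among 9282 genes with at least 10 CPM on average. For IRS1 they were TCP11L2 (0.10), SLC7A1 (0.11) and ABCB1 (0.11), where the SD of IRS1 itself was 0.61. For IRS2 they were ZBED3, PTPN21 and CDC14A (0.17, 0.17 and 0.18 against an SD of 0.82). SGK1 had no neighbour so close: EIF5 and CHAC1 were at 0.25 and 0.26, against an SD of 0.66, and FAM13B at 0.27. The nearest to CCNG2 were HAPSTR1 (0.10), TNFRSF10D (0.10) and ATF4 (0.11), and to PIK3IP1 TSPAN13 and MAP2K1 (both 0.07). INSR had LRRK1, KIF13B and DOCK5 at 0.08 each, and IGF1R had KIAA1671, LRBA and LPP at 0.08 each. Those of FOXO1 were IQGAP3, HELZ2 and MPRIP (0.08, 0.08 and 0.10), and those of FOXO3 were OAS3, TGOLN2 and EFCAB14 (0.06, 0.07 and 0.07). The libraries share 4 conditions, so nearness reflects the group means as much as single libraries.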

How the data were processed

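STAR and CASAVA were used on build hg19, per the submitters' processing notes. Not given in the sources used here are tool versions, annotation, counting program and strand setting. The deposited table holds raw read counts made by the authors for 48162 Ensembl genes in 12 libraries. Each deposited library file holds RPKM values that the authors made from the counts. A single length per gene, recovered from counts and RPKM, reproduced 100% of the RPKM values within a relative tolerance of 1e-06. Symbols came from names tables and GENCODE 29 for 45342 genes. The members and lists were chosen with earlier results of these data known.

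Counts were tested with edgeR 4.0.16 in R 4.3.3 (TMM, filterByExpr, robust quasi-likelihood F tests, a single fit of 4 groups with 8 residual degrees of freedom), with Benjamini-Hochberg adjustment over 15630 genes. The SE is the log2 fold change over the square root of F, and intervals are at 95%. The biological coefficient of variation was 9.29%. CPM is an own calculation with TMM-scaled totals. Alternatives were DESeq2 1.42.0, median-of-ratios factors, total counts, no filter, a filter of 5 CPM in 3 libraries, a fit of the compared groups alone, the replicate number as a block, a length correction (natural spline, 5 degrees of freedom, as offsets), a test of changes beyond 1.2-fold, and leaving out single libraries. No library duplicated another of its group (chi-square over degrees of freedom for pairs 5.40 to 19.5). The procedure was tested on simulated counts. Named are all members and, from each list, the called genes with the smallest p at a mean CPM of at least 1: up to 3 for pH at 6 h, 2 for pH at 3 h, 2 for time at pH 7.4 and 1 for time at pH 6.0. A few named genes are not reported here. Promoter windows are from RefSeq (GRCh38.p14), which matched all 10 genes; the counts are on hg19, so no coordinates of counted features are given.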

Additional observations from a re-analysis of the deposited data

Results flagged for a closer look

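For 7 of the 10 genes the effect of pH differed between 3 h and 6 h by the interaction test of edgeR, and each is given here for that reason. Of all tested genes, 13.1% were called positive and 16.3% negative. After length correction the call was lost for IGF1R, FOXO1 and FOXO3 (adjusted p 0.795, 0.0615 and 0.485). The pH effect at 6 h minus that at 3 h (log2) was -1.141 for IRS1, -1.247 for IRS2, -0.822 for INSR, -0.652 for IGF1R, -0.647 for FOXO1 and -0.472 for FOXO3. For SGK1 it was 0.724, from a deficit at pH 6.0 that was smaller at 6 h than at 3 h. INSR had an effect of 0.33 at 3 h and -0.49 at 6 h, so its sign differed between times, and FOXO1 likewise had 0.29 and -0.35. In both genes the 3 h effect was not called. Length-corrected, their 6 h effects were not called either (-0.196 and -0.154, adjusted p 0.0585 and 0.23). The 4 groups have 3 libraries each, too few for a test of single outlying libraries.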

How the results depend on the processing

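Of 800 values of single members under the alternatives, 730 kept their direction and their side of the threshold, 25 lost a call, 23 gained one and 22 changed sign. The count of members called for time at pH 6.0, 2, was 1 with total counts, 1 with no filter, 1 in the fit of the compared groups alone and 0 against a fold change of 1.2, and leaving out a library gave 1 to 3. Over all genes, 1351 rose and 1699 fell there in the fit with TMM factors. These were 773 and 2499 with total counts, 1608 and 1629 with no filter, and 1504 and 1595 in the compared groups alone. Against 1.2-fold they were 426 and 632, and leaving out a library gave 801 to 1898 and 1090 to 1510. SGK1 was the call lost where the member count was 1, and CCNG2 was lost as well against 1.2-fold. That test also ended calls of FOXO1 for pH at 6 h, of FOXO3 for pH at 3 h, time at pH 7.4 and the interaction, and of IGF1R for time at pH 7.4 and the interaction (adjusted p 0.0519 to 0.265 over the 8 values). Over all genes that test called 368 higher and 332 lower for pH at 3 h and 1912 and 2552 for pH at 6 h. It called 1150 and 516 for time at pH 7.4 and 968 and 1389 for the interaction. The other 4 member counts stayed within 1.5 times under every alternative run. Leaving out a library gave 5 to 6 for pH at 3 h, 6 to 8 for pH at 6 h, 6 to 7 for time at pH 7.4 and 7 to 8 for the interaction. Over all genes it gave 758 to 1776 higher and 832 to 1841 lower for pH at 3 h. For pH at 6 h it gave 2807 to 3372 and 3236 to 3589, and for time at pH 7.4 2038 to 2757 and 1271 to 2173. For the interaction it gave 1479 to 2647 and 1970 to 2681. The fit of the compared groups alone cannot give an interaction and was not run for it.

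The sign changes were in differences that had not been called. Length correction gave 0.219 for FOXO3 for pH at 6 h, 0.021 for FOXO4 and 0.019 for PIK3IP1 for time at pH 7.4, and 0.032, 0.079 and 0.048 for IGF1R, FOXO1 and FOXO3 for time at pH 6.0. Total counts gave -0.014 for IGF1R for pH at 6 h and -0.011 for IRS1 for time at pH 6.0, and the filter of 5 CPM gave 0.005 for FOXO3 for pH at 6 h. Leaving out a library gave -0.006 to 0.191 for FOXO4 for pH at 3 h, and -0.02 to 0.127 for IGF1R and -0.075 to 0.023 for FOXO3 for pH at 6 h. It gave -0.102 to 0.094 for FOXO4 and -0.123 to 0.01 for PIK3IP1 for time at pH 7.4, and -0.129 to 0.082 for FOXO1 for time at pH 6.0. The cause was not tested. Depth limits SGK1 most, with as few as 69 counts in a library, and FOXO1, with 305 or more; the other members had at least 370.

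Deviations of same-numbered libraries from their group means correlated at -0.05 to 0.23. With 3 libraries per group, these values cannot decide whether replicate numbers mark paired libraries. With the replicate block 6, 7, 6, 2 and 7 members were called for pH at 3 h, pH at 6 h, time at pH 7.4, time at pH 6.0 and the interaction (5, 7, 6, 2 and 7 without it), INSR for pH at 3 h being the addition (0.327, adjusted p 0.0383). The block also raised the calls over all genes, to 1671 higher and 1560 lower for pH at 3 h (1489 and 1448 without it). They were 3472 and 3985 for pH at 6 h (3418 and 3924) and 2759 and 2356 for time at pH 7.4 (2695 and 2247). For time at pH 6.0 they were 1495 and 1794 (1351 and 1699), and for the interaction 2131 and 2643 (2048 and 2541). Over all genes, total counts split calls into 1194 higher and 1752 lower for pH at 3 h (1489 and 1448 with TMM), 2093 and 3179 for time at pH 7.4 (2695 and 2247) and 773 and 2499 for time at pH 6.0 (1351 and 1699). Length correction gave 2174 and 1453 for time at pH 6.0 and 2013 and 1533 for the interaction (2048 and 2541).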
